A study of Homo sapiens with 6 samples.

Results

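The 33 genes described here encode the core machinery of autophagy, chosen by name from the Ensembl annotation. All transcripts of each gene were summed, which gave 33 of the 26409 genes in the table. The genes fall into 5 role groups, namely 5 initiation genes, 5 nucleation genes, 5 membrane supply genes, 15 conjugation genes and 3 receptor genes. RNA-seq was run on SUM1315, a cell line labelled as triple-negative breast cancer and wild type in genotype. It was kept for 24 h in a chamber with 1% oxygen (hypoxia, 3 samples) or in air-level 21% oxygen (normoxia, 3 samples). Both groups grew in the same insulin- and EGF-containing serum medium and carried no other treatment. It is a tumour line in monoculture. The labels do not tell separate cultures from repeat preparations, and the p-values below therefore cover the spread among these 6 libraries only, part of which may be technical.

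Autophagy delivers cytoplasm to lysosomes inside a vesicle, the autophagosome. The ULK1 kinase complex starts the process, the class III phosphatidylinositol 3-kinase complex marks the forming membrane with phosphatidylinositol 3-phosphate, and ATG9A vesicles and the ATG2 lipid-transfer proteins supply membrane. The ATG12 and ATG8 conjugation systems then attach ubiquitin-like proteins to that membrane, and receptors such as SQSTM1 tie cargo to the lipidated ATG8 proteins. The kinase MTOR restrains the ULK1 complex in fed cells, and BNIP3 and BNIP3L, receptors for mitochondria, are well-known targets of the hypoxia-inducible factor HIF-1. Protein modification carries much of the control of this pathway, and RNA levels do not report it.

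Depth recovered from the low values was 44.0 to 50.6 M reads per hypoxic library and 50.4 to 50.9 M reads per normoxic library. Pearson correlations across genes on the log2 scale were 0.993 to 0.995 among hypoxic libraries and 0.997 to 0.998 among normoxic ones. The known hypoxia targets SLC2A1, a glucose transporter, and PDK1, a kinase that inhibits pyruvate dehydrogenase, rose by 2.88 and 2.03 on the log2 scale (limma adjusted p = 4.15e-09 and 2.33e-08). All 6 epithelial markers examined, among them EPCAM and the keratin genes KRT8 and KRT18, stayed at or below 0.11 RPKM (reads normalised to transcript length and to the library's total) in every library, while VIM, a mesenchymal marker, lay at 6307 to 7439 RPKM in hypoxia and 4741 to 4901 RPKM in normoxia. The other mesenchymal markers examined were low, FN1 averaging 1.38 ± 0.125 RPKM in hypoxia and 1.44 ± 0.303 RPKM in normoxia (SD, n = 3 each), CDH2 at 1.80 to 2.72 RPKM in hypoxia and 2.58 to 3.41 RPKM in normoxia, and ZEB1 at 6.17 to 7.79 RPKM in hypoxia and 7.51 to 8.50 RPKM in normoxia, and none of these 3 was called. Of the receptors behind the triple-negative label, ESR1 was at or below 0.209 RPKM in every library. ERBB2 lay at 20.2 to 23.7 RPKM in hypoxia and 21.2 to 21.8 RPKM in normoxia. No transcript matched to PGR was among the deposited values, so its level is not known here. The leukocyte markers PTPRC and LYZ stayed at or below 0.0655 RPKM, whereas CD68, a lysosomal membrane glycoprotein also listed as a leukocyte marker, lay at 73.5 to 80.7 RPKM in hypoxia and 45.8 to 48.3 RPKM in normoxia.

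All 33 genes were expressed above the filter (more than 1 RPKM in at least 3 libraries) and entered the test over 11884 genes. Of these members, 7 rose in hypoxia (ULK1, ATG13, PIK3C3, ATG9A, ATG10, GABARAP and OPTN), 6 fell (PIK3R4, UVRAG, ATG2B, ATG3, ATG4A and ATG4C) and 20 did not pass an adjusted p of 0.05. Over all tested genes, 12.4% rose and 24.4% fell and the members' shares were 21.2% raised and 18.2% lowered, a difference from the background that was not tested. The median difference of the members was -0.07 on the log2 scale, against -0.08 for all tested genes. No member moved by 1.5-fold or more, and the ratio of the hypoxic to the normoxic mean lay between 0.669 and 1.35. The split of calls depended on scaling: with median-of-ratios or upper-quartile factors 8 members rose and 4 fell, and with equal library sums 3 rose and 13 fell. The depth factors added ULK2 to the raised members and dropped ATG2B and ATG4C from the lowered ones. Equal sums dropped ATG13, ATG10, GABARAP and OPTN and added RB1CC1, BECN1, ATG14, ATG4B, ATG4D, ATG12 and ATG16L1 as lowered. Over all genes, the share raised among called genes was 33.8% in the table as deposited, 61.0% with median-of-ratios factors, 57.4% with upper-quartile factors and 21.8% with equal sums. The calls of 6 members, ULK1 and ATG9A (raised) and PIK3R4, UVRAG, ATG3 and ATG4A (lowered), held under each of the 17 alternative settings in which they were tested.

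The summed RPKM of the 33 members was 1152 ± 32.2 in hypoxia and 1149 ± 15.3 in normoxia (SD, n = 3 each). SQSTM1 alone made up 40.5% ± 1.21 of that sum in hypoxia and 41.9% ± 0.213 in normoxia. In normoxic cells 3 members lay above 50 RPKM (SQSTM1, GABARAP and ATG3), 26 between 5 and 50 RPKM and 4 below 5 RPKM (ATG14, ATG2B, ATG4A and ATG10). Estimated reads per member and library ran from 181 for ATG4A to 62079 for SQSTM1. In bulk RNA fewer cells with a transcript and less of it per cell cannot be told apart. In 20 of the 33 members (60.6%) the 3 hypoxic libraries did not overlap the 3 normoxic ones, 9 of them with hypoxia above and 11 with hypoxia below, against 52% of all tested genes. A complete separation of 3 from 3 libraries has an exact 2-sided permutation p of 0.1, the smallest this design allows for a value tested alone.

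**Figure D1:**
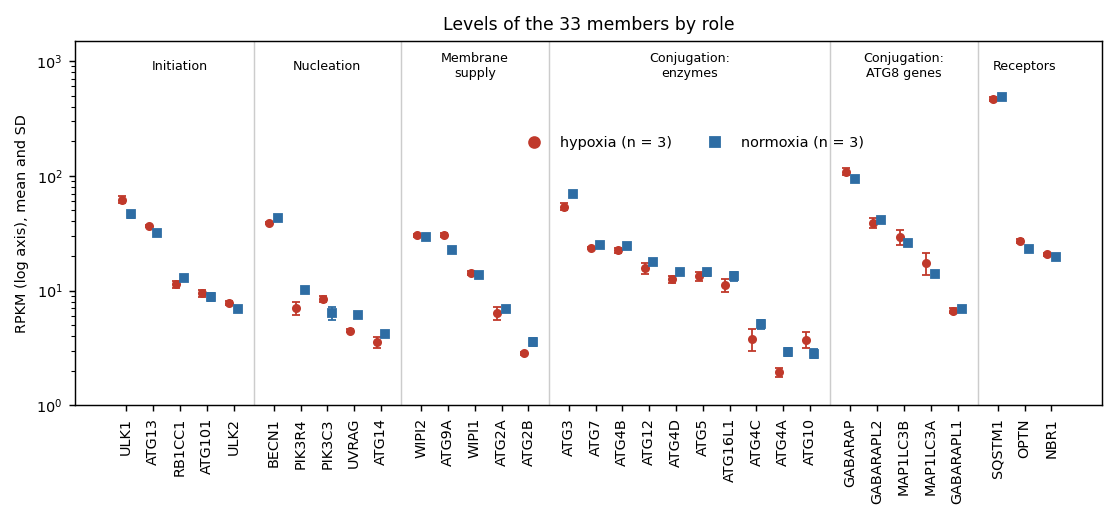
Mean RPKM of each member in hypoxia (red circles) and normoxia (blue squares), with SD over 3 libraries each, on a log axis and grouped by role. SQSTM1 stands at 467 RPKM in hypoxia and 481 RPKM in normoxia, far above the other members, and every pair of means lies within 1.5-fold.

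**Figure D2:**
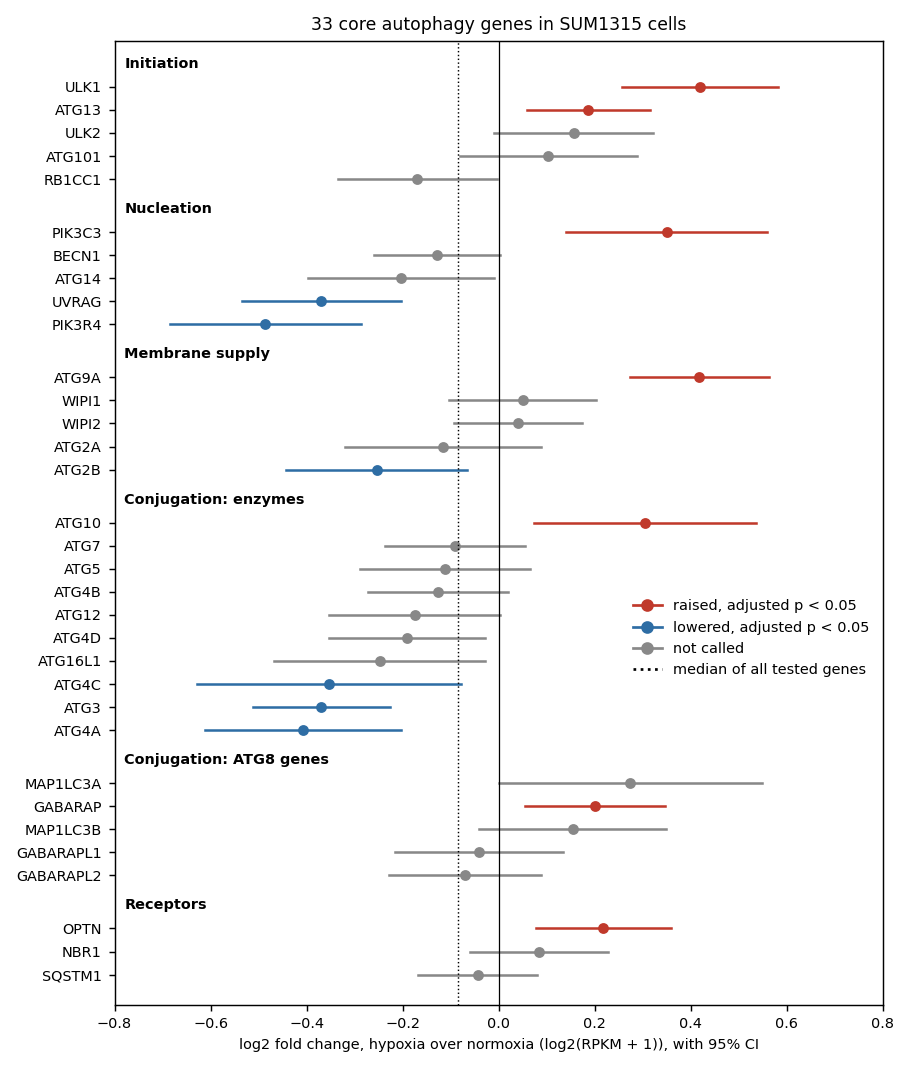
Log2 fold change of hypoxia over normoxia for the 33 members, by role, with 95% confidence intervals from limma. Red members rose and blue members fell at an adjusted p under 0.05, grey members were not called, and the dotted line is the median of all tested genes (-0.08).

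Upstream sequence is shown because the treatment acts in part through HIF-1, a factor known to bind the core ACGTG or GCGTG. The RefSeq promoter table (GRCh38.p14) held 29 of the 33 members, and the 250 bases before each listed start were searched on both strands. The core lay in 20 of 29 members (69.0%), against 47.4% of the 27305 genes in the table. All members passed the expression filter, whereas the 27305 genes were not limited to genes that passed it. The difference between these unlike sets was not tested. By call, it lay in 6 of 7 raised members, 3 of 5 lowered members with an entry and 11 of 17 members not called. ACGTG is contained in the E-box CACGTG, which 2 of 29 members (6.90%) and 7.73% of all genes held. A match is a description of letters and not a binding site. The complete windows of a stably raised and a stably lowered member follow, 5′ to 3′ on the gene's strand, with core letters in capitals; that of ULK1 (chr12:131894372-131894621, plus strand) had 1 core beginning 65 bases before the start, and that of PIK3R4 (chr3:130746830-130747079, minus strand) had 2, at 224 and 94 bases.
ULK1 (raised): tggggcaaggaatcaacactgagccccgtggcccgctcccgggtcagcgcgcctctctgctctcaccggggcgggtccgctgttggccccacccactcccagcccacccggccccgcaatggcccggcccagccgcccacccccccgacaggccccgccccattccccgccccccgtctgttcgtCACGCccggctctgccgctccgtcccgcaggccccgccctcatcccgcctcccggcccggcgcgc
PIK3R4 (lowered): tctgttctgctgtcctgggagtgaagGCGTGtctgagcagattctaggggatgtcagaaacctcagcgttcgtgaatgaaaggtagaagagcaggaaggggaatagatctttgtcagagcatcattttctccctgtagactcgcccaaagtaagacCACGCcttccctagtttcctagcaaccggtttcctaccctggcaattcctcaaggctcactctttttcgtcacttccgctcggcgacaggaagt
For the other stably called members in the table, 25 bases around a core are shown, that of ATG9A at chr2:219229757-219229781 on the minus strand (135 bases before the start), that of ATG3 at chr3:112561968-112561992 on the minus strand (beginning 23 bases before the start and including the E-box) and that of ATG4A at chrX:108091555-108091579 on the plus strand (213 bases before the start). ATG3, a lowered gene, had 5 core matches, in which its palindromic E-box counts once on each strand. The starts are those of the RefSeq table. In the annotation used for the gene values ATG3 begins at chr3:112562046, so the ATG3 stretch shown lies inside that gene.
ATG9A (raised): agccccgcccCACGTagagcacact
ATG3 (lowered): cctttctCACGTCACGTGccgggag
ATG4A (lowered): acgcccgcctCACGTcgccggctcc

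Among the initiation genes, the kinase gene ULK1 and its adaptor gene ATG13 rose and no member fell. ULK1 (ENSG00000177169, chr12:131894651-131923167, plus strand, protein-coding) lay at 57.3, 63.2 and 66.0 RPKM in hypoxia, against 49.5, 46.9 and 42.3 RPKM in normoxia. Every hypoxic library was above every normoxic one, and the difference was 0.42 ± 0.07 on the log2(RPKM + 1) scale (SE, limma adjusted p = 0.00202). This scale understates changes of genes near 1 RPKM. Its main transcript, ULK1-201 of 5310 bases, held 79.8% of the gene's RPKM in hypoxia and 79.3% in normoxia, so the mix of ULK1 transcripts was close in both. ATG13 (chr11:46617527-46674818, plus strand), the scaffold that holds ULK1 and RB1CC1 together, had 35.6, 37.6 and 36.3 RPKM in hypoxia, against 30.9, 32.2 and 32.7 RPKM in normoxia. The groups did not overlap and differed by 0.19 ± 0.06 (adjusted p = 0.0285). Without hypoxic replicate 2, or without normoxic replicate 1, 2 or 3, the adjusted p of ATG13 was 0.0575, 0.134, 0.0895 and 0.07. Equal library sums gave 0.12 (adjusted p = 0.0934).

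The remaining initiation genes were not called. ULK2, the paralogous kinase, averaged 7.76 ± 0.337 RPKM in hypoxia and 6.86 ± 0.301 RPKM in normoxia (SD, n = 3 each), with a log2 interval of -0.01 to 0.32. It was called raised with median-of-ratios factors (0.24, adjusted p = 0.0345), upper-quartile factors (0.23, adjusted p = 0.0433) and GC and length trends removed (0.21, adjusted p = 0.0212). ATG101, which stabilises ATG13, averaged 9.47 ± 0.712 RPKM in hypoxia and 8.75 ± 0.702 RPKM in normoxia, with overlapping libraries. RB1CC1, the scaffold also known as FIP200, averaged 11.4 ± 0.815 RPKM in hypoxia and 12.9 ± 0.558 RPKM in normoxia, and its difference of -0.17 had an interval of -0.33 to -0.00401 that did not survive adjustment (adjusted p = 0.0962). RB1CC1 was called lowered with equal library sums (-0.23), protein-coding transcripts only (-0.21), read-weighted values (-0.28) and transcripts of 1000 bases or more (-0.29, adjusted p 0.0345 to 0.0427 over the 4 settings), and its sign turned with GC and length trends removed (0.03). Of the initiation members 4 of 5 had a positive difference, beside 4300 of 11884 tested genes, with a group median of 0.16 against -0.08 over all genes. The ratio of ULK1 to RB1CC1 RPKM was 5.49 ± 0.739 in hypoxia and 3.58 ± 0.264 in normoxia, with no overlap between libraries.

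The nucleation genes moved in opposite directions: the catalytic subunit gene PIK3C3 rose, while its regulatory partner PIK3R4 and UVRAG fell. PIK3R4 (VPS15, ENSG00000196455, chr3:130678935-130746829, minus strand), the pseudokinase that holds PIK3C3, lay at 8.06, 6.23 and 6.77 RPKM in hypoxia, against 10.3, 9.86 and 10.4 RPKM in normoxia. All hypoxic values were below all normoxic ones, and the difference of -0.49 ± 0.09 was the most negative of the 33 members (adjusted p = 0.00256). PIK3R4-201, a coding transcript of 5015 bases, held 99.6% of its RPKM in hypoxia and 99.3% in normoxia. UVRAG (chr11:75815167-76143195, plus strand), the subunit of the endosomal form of the complex, had 4.52, 4.61 and 4.34 RPKM in hypoxia, against 6.06, 6.08 and 6.13 RPKM in normoxia. Its groups lay far apart relative to their spread, at -0.37 ± 0.08 (adjusted p = 0.00418).

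PIK3C3 (VPS34, ENSG00000078142, chr18:41955206-42087830, plus strand), which makes phosphatidylinositol 3-phosphate, had 8.58, 7.88 and 8.82 RPKM in hypoxia, against 5.51, 7.20 and 6.56 RPKM in normoxia. The libraries did not overlap, and the difference was 0.35 ± 0.10 (adjusted p = 0.0158). Most of this value came from short annotated transcripts, of which a retained intron form of 597 bases held 34.1% of the gene's RPKM in hypoxia and 22.7% in normoxia. The transcript PIK3C3-201 of 9443 bases had 1.45 ± 0.113 RPKM in hypoxia and 0.947 ± 0.0988 RPKM in normoxia. With coding transcripts only, the difference of PIK3C3 was 0.22 and was no longer called (adjusted p = 0.219), and it was 0.26 without normoxic replicate 1 (adjusted p = 0.0765).

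BECN1, the scaffold subunit, and ATG14, the subunit of the autophagic form, were lower in every hypoxic library without being called. BECN1 averaged 38.8 ± 0.839 RPKM in hypoxia and 42.5 ± 2.06 RPKM in normoxia (SD, n = 3 each; adjusted p = 0.111 from limma). Its exons overlap those of PSME3 on the other strand over 300 bases; PSME3 fell by 0.43 (adjusted p = 0.0003), and its part in the BECN1 value was not tested. ATG14 averaged 3.55 ± 0.385 RPKM in hypoxia and 4.23 ± 0.0954 RPKM in normoxia (adjusted p = 0.0884 from limma), and without hypoxic replicate 1 it was called at -0.27 (adjusted p = 0.0309). The median of the 5 nucleation genes was -0.20. The PIK3C3 to PIK3R4 ratio in RPKM was 1.06, 1.26 and 1.30 in hypoxia, against 0.535, 0.73 and 0.632 in normoxia. The normoxic ratios were all below 1 and the hypoxic ratios all above 1, and the short PIK3C3 transcripts enter this ratio.

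**Figure D3:**
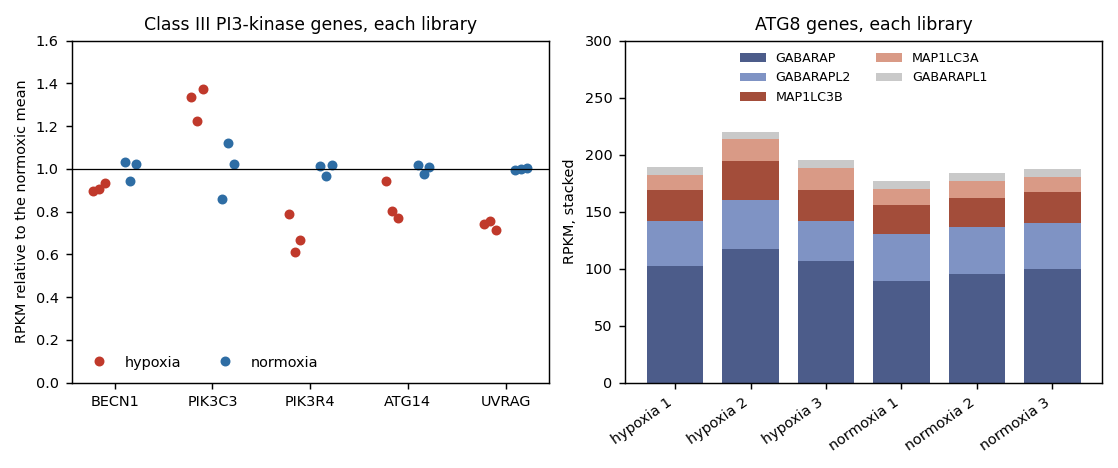
Left, RPKM of the 5 class III phosphatidylinositol 3-kinase genes in each hypoxic (red) and normoxic (blue) library, divided by the gene's normoxic mean; PIK3C3 points lie above 1 in hypoxia and those of the other 4 genes below 1. Right, stacked RPKM of the 5 ATG8 genes per library, with sums of 189 to 220 in hypoxia and 176 to 187 in normoxia and GABARAP as the largest part of each bar.

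Of the membrane supply genes, ATG9A rose, ATG2B fell and 3 were not called. ATG9A (ENSG00000198925, chr2:219219380-219229717, minus strand), the lipid scramblase of the vesicles that seed the membrane, had 29.3, 30.2 and 32.2 RPKM in hypoxia, against 21.5, 23.6 and 22.7 RPKM in normoxia. The groups were clearly apart, at 0.42 ± 0.07 (adjusted p = 0.00102), the smallest adjusted p of any member. Its ATG9A-205 transcript alone averaged 11.2 ± 1.44 RPKM in hypoxia and 7.3 ± 0.498 RPKM in normoxia. ATG2B (chr14:96279202-96363870, minus strand), a lipid-transfer protein, had 2.96, 2.79 and 2.78 RPKM in hypoxia, against 3.63, 3.84 and 3.30 RPKM in normoxia. The libraries did not overlap, with a difference of -0.25 ± 0.09 (adjusted p = 0.0376). That call was lost with either scaling alternative to library depth (-0.18 and -0.19), with GC and length trends removed (-0.04, adjusted p = 0.723) and without hypoxic replicate 2 or 3 or any normoxic replicate (adjusted p 0.0548 to 0.149). GSKIP, which shares 419 exon bases with ATG2B on the other strand, fell by 0.30 (adjusted p = 0.0209), and its part in the ATG2B value was not tested.

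The paralog ATG2A averaged 6.36 ± 0.848 RPKM in hypoxia and 6.95 ± 0.318 RPKM in normoxia, with a log2 interval of -0.32 to 0.09. WIPI1, which reads phosphatidylinositol 3-phosphate on the membrane, averaged 14.2 ± 0.612 RPKM in hypoxia and 13.7 ± 0.665 RPKM in normoxia. WIPI2, the family member that recruits ATG16L1, averaged 30.4 ± 0.807 RPKM in hypoxia and 29.6 ± 1.18 RPKM in normoxia. Both WIPI genes had overlapping libraries, with intervals of -0.10 to 0.20 and -0.09 to 0.17, and their sign turned with equal library sums. The group median was 0.04.

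Among the 10 conjugation enzymes, 3 fell (30%) and 1 rose (10%), beside 24.4% lowered and 12.4% raised over all 11884 tested genes. Of the 10 differences 9 were negative, with a median of -0.18. Among all tested genes 7584 differences were negative, with a median of -0.08. ATG3 (ENSG00000144848, chr3:112532509-112562046, minus strand), the E2-like enzyme that transfers ATG8 proteins to lipid, had 51.7, 58.7 and 51.7 RPKM in hypoxia, against 68.3, 69.5 and 72.1 RPKM in normoxia. Its groups did not overlap, at -0.37 ± 0.06 (adjusted p = 0.0019). It was also the most abundant enzyme of the group, and ATG3-201 held 98.7% of its RPKM in hypoxia and 98.3% in normoxia. ATG4A (chrX:108091668-108154671, plus strand), a cysteine protease that processes ATG8 proteins, had 2.14, 1.77 and 1.96 RPKM in hypoxia, against 2.88, 3.20 and 2.70 RPKM in normoxia. The ratio of means, 0.669, was the lowest of the members, and the difference was -0.41 ± 0.09 (adjusted p = 0.00698).

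ATG4C (chr1:62784135-62865513, plus strand), another ATG4 protease, had 4.54, 4.04 and 2.87 RPKM in hypoxia, against 4.61, 5.31 and 5.36 RPKM in normoxia. Hypoxic replicate 1 nearly reached normoxic replicate 1, and the call at -0.35 ± 0.13 was marginal (adjusted p = 0.046). It was lost without hypoxic replicate 3 (-0.20, adjusted p = 0.115), without any normoxic replicate (adjusted p 0.0531 to 0.134), with both depth scalings and with GC and length trends removed (-0.09, adjusted p = 0.38). ATG4B, the most active and here the most abundant ATG4 protease, averaged 22.5 ± 1.15 RPKM in hypoxia and 24.7 ± 1.12 RPKM in normoxia, with an interval of -0.27 to 0.02. ATG4D averaged 12.6 ± 0.884 RPKM in hypoxia and 14.6 ± 0.661 RPKM in normoxia, with an interval of -0.35 to -0.03 and an adjusted p of 0.0627 in the limma fit. It was called under 5 alternatives, among them GC and length trends removed (-0.34, adjusted p = 0.000883), protein-coding transcripts only (-0.35, adjusted p = 0.00773) and without hypoxic replicate 3 (-0.24, adjusted p = 0.0295). ATG4B was called with GC and length trends removed (-0.19, adjusted p = 0.0243). All 4 ATG4 genes lay lower in every hypoxic library than in any normoxic one, and their summed RPKM was 40.9 ± 1.18 in hypoxia and 47.2 ± 0.828 in normoxia (SD, n = 3 each).

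ATG10 (chr5:81972025-82276857, plus strand), the E2-like enzyme that joins ATG12 to ATG5, was the only enzyme gene that rose. It had 3.54, 3.28 and 4.44 RPKM in hypoxia, against 2.75, 2.64 and 3.11 RPKM in normoxia. The libraries did not overlap, at 0.30 ± 0.11 (adjusted p = 0.0424), but the call was lost without hypoxic replicate 1 (adjusted p = 0.0601) or 3 (0.20, adjusted p = 0.118) and without any normoxic replicate (adjusted p 0.0591 to 0.135). ATG10 shares 374 exon bases with RPS23, a ribosomal protein gene on the other strand, in libraries that do not keep strand. RPS23 averaged 1095 ± 110 RPKM in hypoxia and 928 ± 39.4 RPKM in normoxia and rose by 0.24 (adjusted p = 0.0326), and its part in the ATG10 value was not tested.

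The other conjugation enzymes were not called. ATG7, the E1-like enzyme of both systems, averaged 23.4 ± 0.338 RPKM in hypoxia and 25.0 ± 1.66 RPKM in normoxia, with an interval of -0.24 to 0.05. A coding transcript of 549 bases carried 55.1% of the ATG7 value in hypoxia and 52.0% in normoxia, and with transcripts of 1000 bases or more ATG7 was called at -0.23 (adjusted p = 0.0443). ATG7 shares 1596 exon bases with VGLL4 on the other strand. VGLL4 averaged 35.7 ± 2.40 RPKM in hypoxia and 26.2 ± 0.452 RPKM in normoxia. It rose by 0.43 (limma adjusted p = 0.00087), and its part in the ATG7 value was not tested. ATG5 averaged 13.3 ± 1.17 RPKM in hypoxia and 14.4 ± 0.896 RPKM in normoxia, and 70.6% of its value in hypoxia and 66.5% in normoxia belonged to a transcript of 1888 bases annotated as a target of nonsense-mediated decay. ATG12, the ubiquitin-like protein joined to ATG5, averaged 15.6 ± 1.79 RPKM in hypoxia and 17.7 ± 0.246 RPKM in normoxia, and without hypoxic replicate 2 it was called at -0.26 (adjusted p = 0.0156). ATG12 was also called with protein-coding transcripts only (-0.35, limma adjusted p = 0.048) and with equal library sums (-0.24, adjusted p = 0.031). ATG16L1, which places the ATG12-ATG5 conjugate on membranes, averaged 11.2 ± 1.51 RPKM in hypoxia and 13.4 ± 1.21 RPKM in normoxia, and without hypoxic replicate 3 it was called at -0.31 (adjusted p = 0.0408). It was also called with protein-coding transcripts only (-0.27, limma adjusted p = 0.0208) and with read-weighted values (-0.27, adjusted p = 0.012). The same held for transcripts of 1000 bases or more (-0.27, adjusted p = 0.0132) and equal library sums (-0.31, adjusted p = 0.0368).

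The ATG8 genes, whose products are conjugated, gave 1 raised gene and 4 uncalled ones. GABARAP (ENSG00000170296, chr17:7240014-7242770, minus strand), the most abundant of the family, had 103, 117 and 107 RPKM in hypoxia, against 89.1, 95.2 and 99.3 RPKM in normoxia. The groups did not overlap, at 0.20 ± 0.07 (adjusted p = 0.0351). The call was lost without hypoxic replicate 2 (0.15, adjusted p = 0.0925) and without any normoxic replicate (0.16 to 0.24, adjusted p 0.0533 to 0.154). A short transcript of 762 bases, GABARAP-206, held 13.2% of the gene's RPKM in hypoxia and 7.76% in normoxia. With transcripts of 1000 bases or more the difference was 0.10 (adjusted p = 0.334), and with read-weighted values 0.15 (adjusted p = 0.12).

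MAP1LC3B, the LC3 gene whose lipidated product is the usual autophagosome marker, lay at 26.9, 34.4 and 27.1 RPKM in hypoxia, against 25.6, 26.2 and 26.8 RPKM in normoxia. Hypoxic replicate 2 was high and the other two stood just above normoxia, and the interval of -0.04 to 0.35 includes 0 (adjusted p = 0.187). MAP1LC3A lay at 13.1, 19.4 and 19.6 RPKM in hypoxia, against 14.0, 14.3 and 13.6 RPKM in normoxia. Its hypoxic replicate 1 was below all normoxic libraries and the other two were above them; the difference was 0.27 with all libraries (adjusted p = 0.103) and 0.45 without that replicate (adjusted p = 0.0019). GABARAPL2 averaged 39.1 ± 3.8 RPKM in hypoxia and 40.9 ± 0.0308 RPKM in normoxia, and GABARAPL1 averaged 6.7 ± 0.334 RPKM in hypoxia and 6.93 ± 0.458 RPKM in normoxia. The intervals of GABARAPL2 and GABARAPL1 were -0.23 to 0.09 and -0.22 to 0.13, and the sign of both turned with either depth scaling. The 5 ATG8 genes together had 201 ± 16.3 RPKM in hypoxia and 183 ± 5.51 RPKM in normoxia, of which GABARAP made up 54.1% ± 0.773 in hypoxia and 51.8% ± 1.26 in normoxia.

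Of the cargo receptors, OPTN rose and the far more abundant SQSTM1 was not called. OPTN (ENSG00000123240, chr10:13099449-13138308, plus strand), a receptor for ubiquitin-tagged mitochondria and bacteria, had 28.1, 26.5 and 26.2 RPKM in hypoxia, against 21.8, 23.7 and 23.6 RPKM in normoxia. The groups did not overlap, at 0.22 ± 0.06 (adjusted p = 0.0224), and the call was lost without normoxic replicate 1, 2 or 3 (adjusted p = 0.117, 0.0566 and 0.059). SQSTM1 (p62), a receptor for ubiquitinated proteins and itself degraded by autophagy, lay at 451, 460 and 489 RPKM in hypoxia, against 475, 477 and 491 RPKM in normoxia. These overlap, with a difference of -0.04 and an interval of -0.17 to 0.08 (adjusted p = 0.565), and the sign turned with either depth scaling. NBR1, a related receptor, lay at 21.3, 20.0 and 20.7 RPKM in hypoxia, against 18.5, 20.4 and 19.5 RPKM in normoxia, with an interval of -0.06 to 0.23 (adjusted p = 0.326). With GC and length trends removed NBR1 was called at 0.19 (adjusted p = 0.0132). The SQSTM1 to OPTN ratio was 17.4 ± 1.32 in hypoxia and 20.9 ± 0.865 in normoxia (SD, n = 3 each), with no overlap between libraries.

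**Figure D4:**
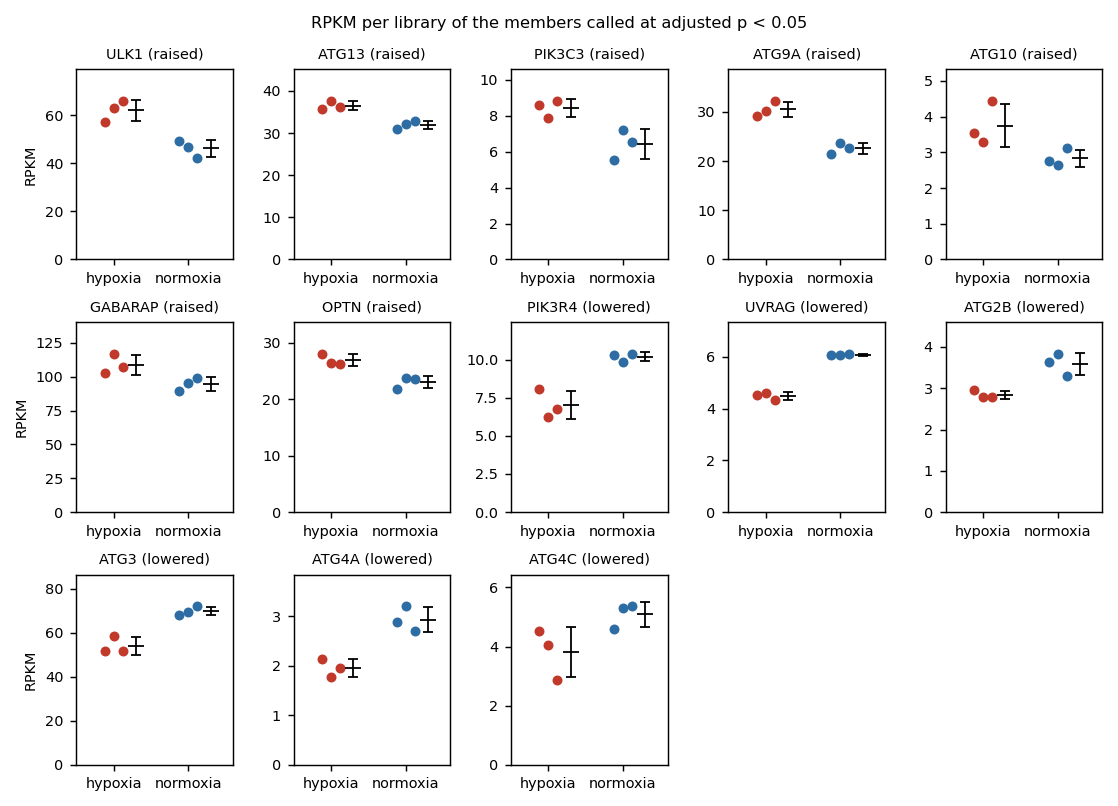
RPKM of the 13 called members in each of 3 hypoxic (red, left) and 3 normoxic (blue, right) libraries, with mean and SD at the side of each group and every axis starting at 0. No panel has overlapping groups, and the closest approach is that of ATG4C, at 4.54 RPKM in hypoxia and 4.61 RPKM in normoxia.

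Other genes of the pathway were read from the same fit. Of 11 further core factors tested, 3 rose (27.3%) and 4 fell (36.4%), beside 12.4% raised and 24.4% lowered over all tested genes. The difference from these shares was not tested. ATG16L2, a paralog of ATG16L1, rose by 0.53 and WDR45, a WIPI family gene also called WIPI4, rose by 0.37 (adjusted p = 0.0011 and 0.00363). RUBCN, which binds and inhibits the UVRAG form of the class III kinase complex, fell by 0.43 and EI24 fell by 0.24 (adjusted p = 0.0032 and 0.0117). The EI24 call was lost without normoxic replicate 2 or 3 (adjusted p = 0.0595 and 0.0624) and with median-of-ratios or upper-quartile factors (-0.15 and -0.16, adjusted p = 0.0826 and 0.0566). Of 13 genes for fusion of autophagosomes with lysosomes, 0 rose and 3 fell by limma, and all 13 differences were negative with a median of -0.16, beside 7584 negative differences among all 11884 tested genes, 24.4% lowered and a median of -0.08. The fallers included VPS33A, of the HOPS tether (-0.25, adjusted p = 0.0279), and the SNARE gene YKT6 (-0.17, adjusted p = 0.0355), and both calls were lost with either depth scaling (-0.17 and -0.18 for VPS33A, -0.08 and -0.09 for YKT6). They were also lost without hypoxic replicate 3 for VPS33A (adjusted p = 0.0576) or hypoxic replicate 1 for YKT6 (adjusted p = 0.0547), and without normoxic replicate 1 or 2 for both (adjusted p 0.0926 to 0.136), and for YKT6 without normoxic replicate 3 (adjusted p = 0.117).

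Receptor genes outside the core set were read next. BNIP3 lay at 155, 171 and 159 RPKM in hypoxia, against 27.4, 28.2 and 30.6 RPKM in normoxia, a rise of 2.45 (adjusted p = 9.52e-10). BNIP3L lay at 89.7, 89.8 and 88.4 RPKM in hypoxia, against 19.4, 20.2 and 19.8 RPKM in normoxia, a rise of 2.12 (adjusted p = 9.52e-10). Of 6 mitophagy receptor genes 3 rose (50%) and none fell in the limma fit. Of 10 other receptor genes 2 rose (20%) and 1 fell (10%). Over all tested genes 12.4% rose and 24.4% fell, and the differences from these shares were not tested. CALCOCO1, a receptor for endoplasmic reticulum and Golgi, rose by 0.73 (adjusted p = 0.00097), TEX264, a reticulum receptor, rose by 0.23 (adjusted p = 0.0188) and SEC62, another reticulum receptor, fell by 0.27 (adjusted p = 0.0294). The TEX264 call was lost without normoxic replicate 1 or 2 (adjusted p = 0.0795 and 0.0783), and that of SEC62 without any normoxic replicate (adjusted p 0.0625 to 0.0952). With GC and length trends removed TEX264 was at 0.10 and SEC62 at -0.09 (adjusted p = 0.0834 and 0.179), and SEC62 was also not called with median-of-ratios or upper-quartile factors (-0.18 and -0.19, adjusted p = 0.137 and 0.116). Neither was called without the filter on low values (adjusted p = 0.0646 for TEX264 and 0.154 for SEC62).

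Upstream of ULK1, 2 of 14 tested kinase-pathway genes rose (14.3%) and 3 fell (21.4%). Over all 11884 tested genes 12.4% rose and 24.4% fell, close to these shares. DDIT4 (REDD1), a stress-induced inhibitor of the MTOR complex, lay at 246, 281 and 261 RPKM in hypoxia, against 28.4, 36.6 and 29.8 RPKM in normoxia, a rise of 3.02 (adjusted p = 2.09e-09). MTOR itself lay at 18.8, 15.1 and 17.8 RPKM in hypoxia, against 25.0, 24.8 and 24.0 RPKM in normoxia, at -0.50 (adjusted p = 0.0012). RPTOR, its scaffold, rose by 0.28 (adjusted p = 0.0093), but the difference was -0.17 with coding transcripts only (adjusted p = 0.247) and lost its call without normoxic replicate 3 (adjusted p = 0.0539). AKT1S1, an inhibitory MTOR complex subunit, fell by 0.24 (adjusted p = 0.0303), a call lost without hypoxic replicate 1 (adjusted p = 0.0514) and without any normoxic replicate (adjusted p 0.0756 to 0.0967). With median-of-ratios or upper-quartile factors AKT1S1 was at -0.15 and -0.17 (adjusted p = 0.155 and 0.111), and it was not called without the filter (adjusted p = 0.144).

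Of 8 transcription factor genes tested, 1 rose (12.5%) and 2 fell (25%), close to the 12.4% raised and 24.4% lowered over all tested genes. DDIT3 (CHOP), a stress factor known to act on autophagy genes, rose by 0.35 (adjusted p = 0.00742). HIF1A, the oxygen-regulated subunit of HIF-1, lay at 23.0, 20.6 and 20.4 RPKM in hypoxia, against 26.2, 26.0 and 26.4 RPKM in normoxia, at -0.29 (adjusted p = 0.00756). With GC and length trends removed HIF1A was at -0.07 and not called (adjusted p = 0.278). TFE3, a lysosomal gene regulator, fell by 0.18 (adjusted p = 0.0378), and that call was lost without hypoxic replicate 1 or 2 (adjusted p = 0.0724 and 0.0552) and without any normoxic replicate (adjusted p 0.0897 to 0.146). With median-of-ratios or upper-quartile factors TFE3 was at -0.09 and -0.11 (adjusted p = 0.259 and 0.188), and it was also not called with protein-coding transcripts only or without the filter (adjusted p = 0.0767 and 0.0718). DDIT3 was not called without the filter (adjusted p = 0.0569).

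**Figure D5:**
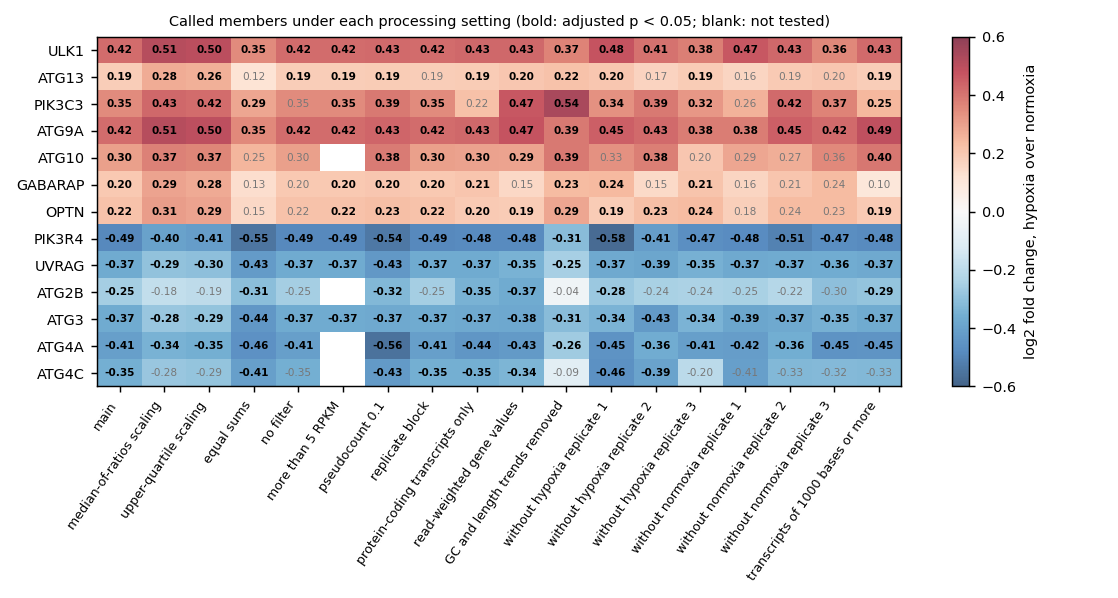
Log2 fold change of hypoxia over normoxia for the 13 called members (rows) under the deposited scaling and 17 alternatives (columns), with bold numbers at an adjusted p under 0.05 and blank cells where the gene was below the filter. ULK1, ATG9A, PIK3R4, UVRAG, ATG3 and ATG4A are bold in every column in which they were tested, and no cell of the 13 changes sign.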

How the data were processed

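RNA-seq libraries (500 ng of total RNA, per the labels' protocols, with a kit known to be unstranded) came from 3 hypoxic and 3 normoxic samples of SUM1315. The authors deposited 1 table of RPKM values per Ensembl transcript; the unit is not written there and was inferred from the values. Trimmomatic, HISAT2, SAMtools and Partek, with GRCh38 and hg38, are named per the submitters' processing notes; their versions, the annotation release and the strand setting of counting are not stated in these sources. Low values were near whole multiples of 1 read, 81.2% to 82.2% of them within 0.1, which gave the depths. At that depth 1 read in a 2 kb transcript is worth 0.00982 to 0.0114 RPKM; most values split reads between transcripts, so no count test was run.

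Of 165956 transcripts, 140004 (84.4%) matched GENCODE 29 (GRCh38) and were summed per gene; 3.44% to 3.68% of RPKM lay outside. Genes above 1 RPKM in at least 3 libraries were tested with limma 3.58.1 (R 4.3.3, mean-variance trend, log2(RPKM + 1), no block), with Benjamini-Hochberg adjustment over all 11884 genes. The code was tested on simulated data. Members and lists were chosen with earlier results of these data known. All 33 members are named; of each context list at most 2 raised and 2 lowered genes with the smallest adjusted p, plus DDIT4, BNIP3 and HIF1A. Of the members, 19 have an exon overlapping another gene. Alternatives changed the scaling, filter, pseudocount (0.1), transcripts summed, weighting, GC and length trends, and libraries.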

Additional observations from a re-analysis of the deposited data

How the results depend on the processing

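With equal library sums 3 members rose and 13 fell, and without a filter 3 rose (PIK3C3, ATG10, GABARAP and OPTN were no longer called). Without a filter 4 members fell, and ATG2B and ATG4C were no longer called (limma adjusted p = 0.0764 and 0.228). Above 5 RPKM 3 fell (PIK3R4, UVRAG and ATG3), and ATG2B, ATG4A and ATG4C did not pass that filter and were not tested. With protein-coding transcripts only 10 fell. Without each library in turn 2 to 7 members rose and 4 to 7 fell, and over all genes 1522 to 2852 fell. Without normoxic replicate 1, 2 or 3 these were 2, 3 and 3 members raised and 1754, 1621 and 1522 genes lowered. Leaving out hypoxic replicate 1, 2 or 3 gave 2852, 2827 and 2731 genes lowered. The median SD over genes on the log2 scale was 0.111 in hypoxia and 0.0611 in normoxia. Over all genes 1338 fell with median-of-ratios scaling, 1466 with upper-quartile scaling and 1367 without a filter. Under the 2 depth scalings (median-of-ratios, then upper-quartile) group medians were 0.24 and 0.23 (initiation), -0.13 and -0.14 (nucleation), 0.13 and 0.12 (membrane supply), -0.026 and -0.03755 (conjugation), 0.17 and 0.16 (receptors). With equal sums they were 0.10 (initiation), -0.0265 (membrane supply, a turn of sign), -0.18 (conjugation) and 0.019 (receptors). With GC and length trends removed they were 0.21 (initiation), -0.05869 (nucleation), -0.0066 (conjugation) and 0.19 (receptors). Protein-coding transcripts and read-weighted values gave 0.19 and 0.19 for initiation and -0.08158 and -0.139 for conjugation, and transcripts of 1000 bases or more, a setting chosen after seeing the data, gave 0.19 for initiation. Without each library the medians ran from 0.12 to 0.18 (initiation), -0.27 to -0.16 (nucleation), 0.02 to 0.06 (membrane supply), -0.1448 to -0.07976 (conjugation) and 0.05 to 0.12 (receptors). Signs turned for genes not called: with GC and length trends removed RB1CC1 was 0.0322, ATG101 -0.00603, ATG5 0.044 and GABARAPL2 0.00303; with equal sums WIPI1 was -0.0144 and WIPI2 -0.0265; under the depth scalings, in the same order, GABARAPL1 was 0.0393 and 0.0286, GABARAPL2 0.0207 and 0.0086, and SQSTM1 0.0487 and 0.0364. GABARAPL1 was 0.0027 without normoxic replicate 2 and GABARAPL2 0.0031 without hypoxic replicate 3, and RPTOR, a called gene, was -0.17 with protein-coding transcripts only. The cause of these changes was not tested. The labels do not say whether replicate numbers pair the samples. Correlations of same-numbered deviations were 0.09, 0.03 and -0.23, and those of other pairs ran from -0.25 to 0.20. With 3 libraries per group these values cannot settle the pairing. With a replicate block 6 members rose and 5 fell, and 1465 genes rose and 2664 fell over all genes. That block ended the calls of ATG13 (adjusted p = 0.0599), ATG2B (0.0635), YKT6 (0.06655) and TFE3 (0.0631). Of 556 member results under alternatives, 466 kept direction and side of the threshold, 48 lost a call, 28 gained one and 14 turned sign. The member with the fewest estimated reads was ATG4A, with 181 to 367 per library. The effect of depth on the calls was not tested.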
